A study of Vitis labrusca and Vitis cinerea and Vitis acerifolia with 56 samples.

Results

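The shared ripening-repressed genes are 150 grape genes whose transcripts stood far higher in green berries in sunlight than in mature berries that had seen light, in both Vitis labrusca and Vitis cinerea. They were the top 150 of 20835 genes that reached 1 FPKM in at least 2 libraries, out of 29971 genes in the table. FPKM counts the fragments of a gene scaled by transcript length and by the size of the library, and levels below are log2(FPKM + 1) unless FPKM is named. The members were chosen by their measured fall in level, each gene being scored by the smaller of its 2 falls, 1 per species. The V. labrusca fall ran between 2 pre-veraison sunlight libraries and 4 mature libraries of berries in light at harvest, and the V. cinerea fall between 1 and 4 such libraries. Only 1 of the 4 mature libraries of each species came from berries in sunlight throughout. The others came from berries boxed away from light and uncovered at pre-veraison or veraison, and all are called lit mature below. These 11 libraries chose the members, so the falls themselves are a description and were not tested.

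Grape berries first grow as hard, green, acid fruit, and at veraison they soften, take up sugar and, in coloured grapes, begin to make anthocyanins. In the green phase the fruit still builds cells and walls, photosynthesises, and stores organic acids and tannins, and transcripts of these activities are known to decline as ripening begins. Anthocyanin synthesis in the skin responds to sunlight to an extent that differs between grapes, which is the question the study's light treatments address.

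Clusters were either kept in boxes covered with aluminium foil or grown in sunlight, and the 5 harvests were the young berry, pre-veraison, veraison, 2 weeks after veraison and maturity. Boxed berries were still in the box at harvest: boxed to pre-veraison, boxed to veraison, or boxed throughout and taken mature. Re-exposed berries had been uncovered at pre-veraison or at veraison and were taken later. Of the 56 libraries 24 were labelled V. labrusca, 22 V. cinerea and 10 V. acerifolia. The cultivar entry of the V. labrusca libraries is a hybrid of V. labrusca with V. vinifera, the wine grape, spelled vinerfera there. V. cinerea is entered as an American native grape and V. acerifolia as a wild species. The labels give no clone or vine and name the tissue only as berries, so skin, flesh and seed were not separated in the labels. Most V. labrusca and V. cinerea groups had 2 libraries and every V. acerifolia group had 1. Nothing in the labels says that 2 libraries of a group came from separate vines, so p-values measure the spread between these libraries, which may be technical. The labels name no mutant or transgene.

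Read depth is unknown because FPKM holds no read counts. Total FPKM ran from 764972 to 1882693 per library. In 3 V. labrusca libraries low values were sparse, with 11880 to 14509 genes above 0 against 16683 to 19989 elsewhere: young berry replicate 1, sunlight veraison replicate 1, and replicate 1 uncovered at pre-veraison and taken 2 weeks after veraison. Genes private to 1 species were those at least 1 log2 unit above the other species in all libraries up to veraison. Each of those libraries was scored by genes chosen without it. Whether ripening itself lowers the private genes was not tested. They followed the labels in 25 of 25 libraries up to veraison and in 22 of 31 later ones. The 9 that did not were in no library set of the rule and in no tested difference, and entered the fit only through its estimate of spread. Of these 9, 3 were labelled mature V. acerifolia, namely those grown in sunlight, uncovered at pre-veraison and uncovered at veraison. A library followed its label when its own species had the highest share of private genes seen, even a low share. The 4 lit mature V. cinerea libraries of the rule showed 23.1% to 38.5% of the 13 V. cinerea private genes, against 84.6% in each boxed mature one. In V. cinerea sunlight berries 2 weeks after veraison the shares were 38.5% and 84.6%. Replicate 2 of V. labrusca at veraison, boxed and in sunlight, carries a stage entry of 2 weeks after veraison, later than its title says, and was used as veraison.

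The table pairs no identifier with a gene description, so members are given by grapevine gene model identifier. The exception is VIT_16s0022g00670, recalled from the grape literature as GIN1, a vacuolar invertase that splits sucrose in the vacuole, an assignment not checked here against an annotation. It was the 1 member among 10 recalled identifiers for tannin synthesis, light signalling, invertases and organic acids. The other 9 ranked between 391 and 19892 of the 20835 genes.

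The falls that chose the members had a median of 4.87 log2 units in V. labrusca (quartiles 4.36 to 5.52) and 5.35 in V. cinerea (quartiles 4.78 to 6.36). Over all 20835 genes the same medians were 0.25 and 0.11. The scores ran from 3.98 to 7.45, with a median of 4.72. VIT_07s0104g00410 had the highest score, at 7.45. Just inside the limit, VIT_12s0028g01180 scored 3.977, and VIT_13s0067g00110, the first gene outside, scored 3.972. In lit mature berries the members together made 0.0975% to 0.186% of a V. labrusca library's FPKM and 0.128% to 0.204% of a V. cinerea library's. In pre-veraison sunlight they made 5.39% and 6.01% in the 2 V. labrusca libraries and 12.4% in the V. cinerea library. From 27 to 35 members in V. labrusca and 21 to 24 in V. cinerea were listed at 0 in a lit mature library, and none was in the 3 pre-veraison sunlight libraries. In whole berries, fewer cells of a type and less RNA per cell cannot be told apart.

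VIT_07s0104g00410 shows the pattern at its plainest. In V. labrusca it was listed at or near 0 in all 4 lit mature libraries of the rule, against 203 and 197 FPKM in pre-veraison sunlight. In V. cinerea it had 0, 0, 0.367 and 1.21 FPKM in the lit mature libraries, against 229.8 FPKM in pre-veraison sunlight (1 library). The groups lie far apart in both species, as the rule required.

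The members were already high in young berries. Their median level was 7.26 and 7.03 in the 2 V. labrusca young berry libraries and 6.73 and 6.85 in those of V. cinerea. At pre-veraison in sunlight it was 6.73 and 6.61 in V. labrusca and 7.55 in V. cinerea. Of the 150 members in V. labrusca, 95 had a young berry mean within 1 log2 unit of the pre-veraison sunlight mean, 31 lay at least 1 unit above it and 24 at least 1 unit below. In V. cinerea 67 were within 1 unit, 12 above and 71 below.

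**Figure D1:**
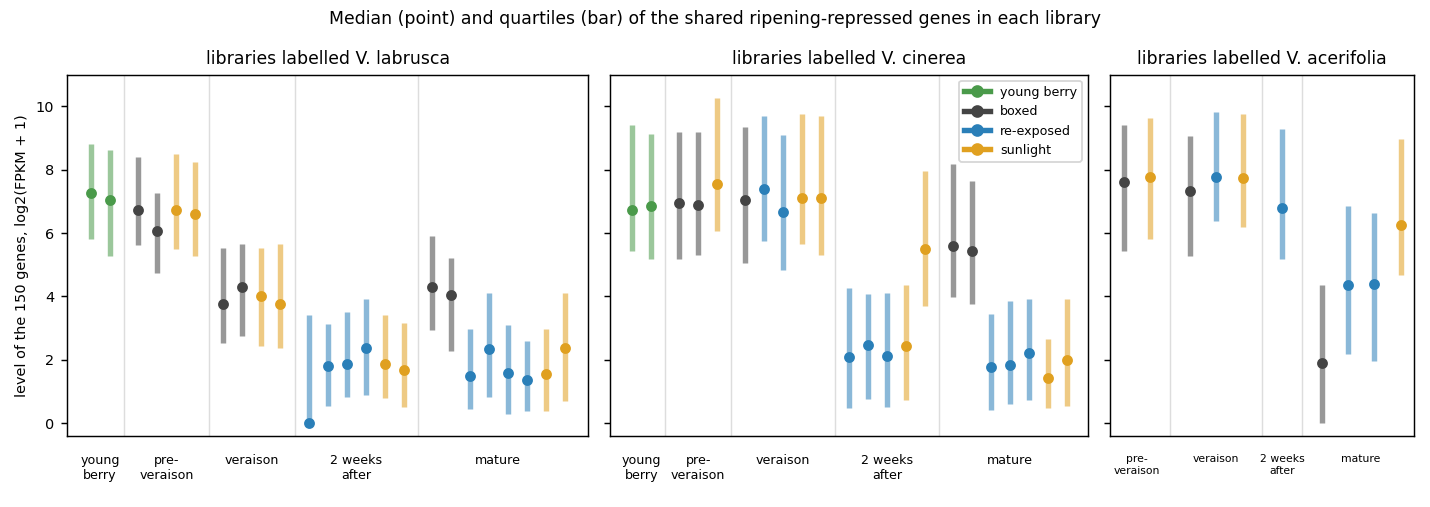
Each point is the median level, as log2(FPKM + 1), of the 150 genes in 1 library, and the bar runs between their quartiles; libraries are ordered by stage within species and coloured by light at harvest. V. labrusca libraries are already near 4 at veraison, V. cinerea libraries stay near 7, and the boxed mature libraries of both lie above their lit mature ones.

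The species parted in the libraries used as veraison. In V. labrusca the median level in sunlight was 6.73 and 6.61 at pre-veraison, 4.01 and 3.75 at veraison and 1.88 and 1.68 at 2 weeks after veraison. In V. cinerea it was 7.55 at pre-veraison, 7.10 and 7.11 at veraison and 2.43 and 5.51 at 2 weeks after. Each member's position between its pre-veraison (0%) and lit mature (100%) levels was computed, and these percentages rest on the libraries of the rule at both ends and are given without a test. At veraison in sunlight the median member had completed 62.7% of its fall in V. labrusca (quartiles 45.2% to 74.9%) and 9.52% in V. cinerea (quartiles 3.06% to 18.2%). At least 50% was completed by 104 members in V. labrusca and by 4 in V. cinerea, and 147 of 150 were further along in V. labrusca. There were 89 members past 50% in V. labrusca and under 25% in V. cinerea. The V. labrusca value was 60.958% without the sparse veraison library, which left replicate 2 with the conflicting stage entry. By the labels, anthocyanin at sunlight veraison was 0.721 and 0.208 in V. labrusca and 0.083 and 0.016 in V. cinerea, with no unit. The part of berry stage in this species difference was not tested.

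By 2 weeks after veraison the median member in V. labrusca sunlight berries had completed 95.2% of its fall, and 140 members had completed at least 80%. V. cinerea had 66.8%, with 30 members past 80%. This V. cinerea value is the mean of unlike libraries, with a median of 94.3% in replicate 1 and 39.4% in replicate 2. The labels give these libraries anthocyanin concentrations of 0.826 and 1.23, with no unit, and the part of berry stage or identity in this split was not tested. V. labrusca berries re-exposed to light and taken 2 weeks after veraison had medians between 89.5% and 101.6%.

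Members differed in their timing. Among the earliest, VIT_12s0057g00210 was listed at 0 in both V. labrusca sunlight libraries at veraison, against 11.2 and 27.5 FPKM at pre-veraison. Of those veraison libraries, replicate 1 was sparse and replicate 2 carries the conflicting stage entry. V. cinerea berries had 7.49 and 1.40 FPKM at veraison, against 25.4 FPKM at pre-veraison. It was listed at 0 in the sunlight libraries of both species 2 weeks after veraison. Among the latest, VIT_11s0016g05830 had 80.9 FPKM in each V. labrusca sunlight library at veraison, against 91.3 and 86.3 FPKM at pre-veraison. V. cinerea berries had 159.98 and 187 FPKM at veraison, against 38.4 FPKM at pre-veraison. Its V. cinerea level was thus higher at veraison than at the start from which the fall was measured, and 2 weeks later it was near 0 in replicate 1 and 164 FPKM in replicate 2. This gene and VIT_11s0016g05840, also among the latest, have consecutive identifiers. There were 5 such pairs among the members (10 genes), and whether reads were shared between near copies was not tested.

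**Figure D2:**
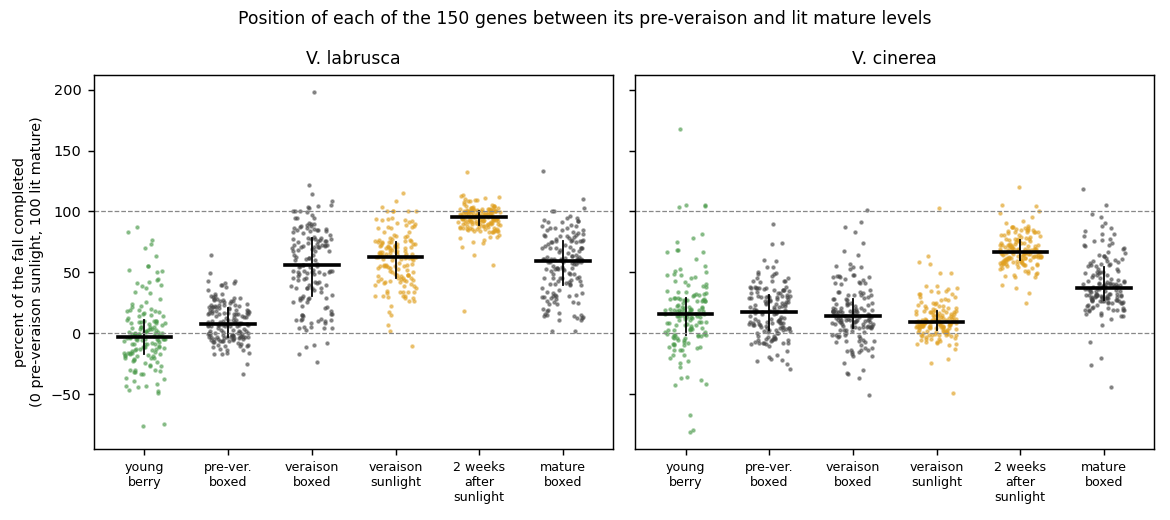
Each point is 1 of the 150 genes in 1 species and stage, placed by the percent of its fall completed (0 is its mean in pre-veraison sunlight berries, 100 its mean in lit mature berries); thick bars are medians and thin bars quartiles. At sunlight veraison the medians are 62.7% in V. labrusca and 9.52% in V. cinerea, and in boxed mature berries 59.1% and 37.4%.

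The step from veraison to 2 weeks later in sunlight used no library of the rule and was tested with limma across 20835 genes, with a Benjamini-Hochberg adjusted p under 0.05. In V. cinerea 89 members fell and none rose, where 3.97% of all genes fell and 0.83% rose. The median member difference was -3.08, against -0.16 over all genes, and 149 of 150 members were lower. With 2 unlike libraries at the later stage the count hung on single libraries. It was 131 without replicate 2 of 2 weeks after veraison and 1 without replicate 1, and 7 and 31 without replicate 1 and 2 of veraison. With a pseudocount of 0.1 it was 34, and with the V. cinerea libraries fitted on their own 20. Set against the veraison mean, 147 members were at least 1 log2 unit lower in replicate 1 and 126 in replicate 2, with medians of -4.53 and -1.64.

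VIT_11s0016g00560 was listed at 0 and had 2.41 FPKM in V. cinerea sunlight berries 2 weeks after veraison, against 35.2 and 37.1 FPKM at veraison. It fell by 4.33 log2 units (SE 0.63, limma adjusted p = 0.00129). VIT_07s0104g00410 was at 0 and 5.85 FPKM in the later libraries, against 122 and 119 FPKM at veraison, and fell by 5.54 (SE 0.96, limma adjusted p = 0.00272). Without replicate 1 of 2 weeks after veraison its limma adjusted p was 0.15.

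In V. labrusca 0 members were called by limma over the same step, where 0.0144% of all genes fell and 0.0096% rose. At an unadjusted p under 0.05, 61 members were lower and 0 higher. Counts at an unadjusted p, here and below, were made for the members only, with no share of all genes beside them. Their median difference was -1.60, against 0.00 over all genes, and 139 of 150 were lower. In 111 members both libraries of 2 weeks after veraison lay below both of veraison, as did 15.7% of all genes. Without the veraison sunlight library of replicate 2, whose stage entry conflicts, 12 members were called lower.

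Ripening inside the box was the second course of the fall that the rule did not use. Boxed mature berries were set against boxed pre-veraison berries, 2 libraries each in either species. In V. labrusca 35 members fell and 0 rose by limma, where 1.67% of all genes fell and 0.782% rose. The median member difference was -2.45, against -0.06 over all genes, and 149 of 150 members were lower. The count was 9 with a pseudocount of 0.1, 11 and 16 without replicate 1 and 2 of the boxed mature berries, and 6 without replicate 1 of the boxed pre-veraison berries. At an unadjusted p under 0.05, 102 members were lower and none higher. In 131 members both mature libraries lay below both pre-veraison ones, as did 28.7% of all genes.

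In V. cinerea 29 members fell and 0 rose by limma, where 3.35% of all genes fell and 1.97% rose. The median member difference was -1.17, against -0.08 over all genes, and 116 of 150 were lower. There were 52 members lower and 3 higher at an unadjusted p under 0.05. The count was 8 with a pseudocount of 0.1, 14 and 6 without replicate 1 and 2 of the boxed mature berries, 8 and 10 without replicate 1 and 2 of the boxed pre-veraison berries, and 18 when the V. cinerea libraries were fitted on their own. In 100 members both mature libraries lay below both pre-veraison ones, as did 33.9% of all genes.

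In both species together 14 members fell, which is 40% of the V. labrusca list and 48.3% of the V. cinerea list. The same overlap was not counted over all genes, so it is a description only. Across the 150 genes the differences in the 2 species had a Pearson r of 0.01, a description over genes that share libraries. VIT_15s0048g01590 had 1.53 and 0.623 FPKM in boxed mature V. labrusca berries, against 48.3 and 31.5 FPKM in boxed pre-veraison ones. It fell by 4.30 (SE 0.59, limma adjusted p = 0.000116). Boxed mature V. cinerea berries had 2.00 and 1.17 FPKM, against 23.5 and 44.4 FPKM in boxed pre-veraison ones, a fall by 3.71 (SE 0.59, limma adjusted p = 0.000426). The groups did not overlap in either species, and the gene kept both calls under all 13 alternatives.

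VIT_16s0022g02200 had 3.24 and 4.94 FPKM in boxed mature V. labrusca berries, against 98.0 and 91.2 FPKM in boxed pre-veraison ones, and fell by 4.25 (SE 0.70, limma adjusted p = 0.000957). Boxed mature V. cinerea berries had 2.28 and 1.38 FPKM, against 76.6 and 49.96 FPKM in boxed pre-veraison ones, a fall by 4.49 (SE 0.70, limma adjusted p = 0.000358). It was called in both species, but lost the V. labrusca call with a pseudocount of 0.1, at a limma adjusted p of 0.0642. VIT_07s0104g00410 had 11.03 and 3.12 FPKM in boxed mature V. labrusca berries, against 203 and 95.7 FPKM in boxed pre-veraison ones. It fell by 4.32 (SE 0.96, limma adjusted p = 0.0134). In boxed mature V. cinerea berries it had 25.8 and 5.84 FPKM, against 123 and 173 FPKM in boxed pre-veraison ones, and fell by 3.44 (SE 0.96, limma adjusted p = 0.0334). This gene lost its calls under some alternatives, in 3 of 13 for V. labrusca and 5 of 13 for V. cinerea.

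**Figure D3:**
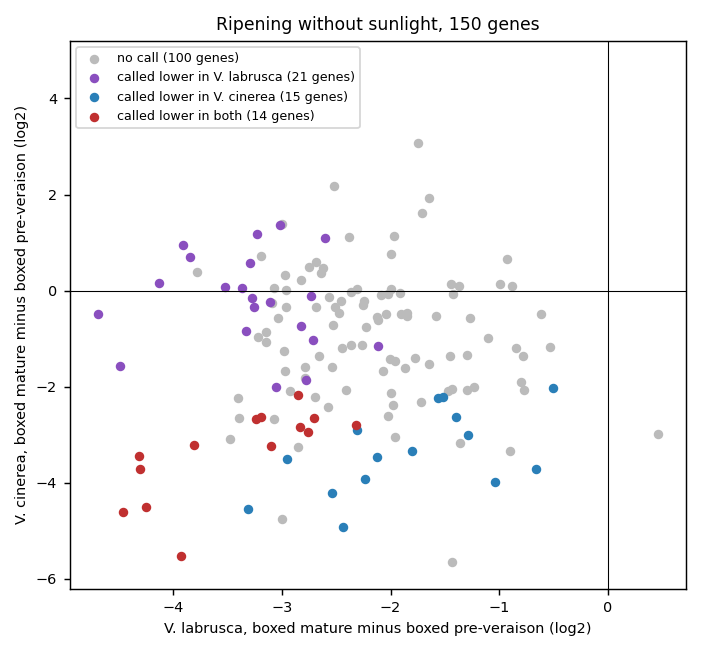
Each point is 1 of the 150 genes, placed by its log2 difference between boxed mature and boxed pre-veraison berries in V. labrusca (horizontal) and V. cinerea (vertical); colours give the limma calls at an adjusted p under 0.05. The 14 genes called lower in both species sit at the lower left, and all but 1 gene lie below 0 in V. labrusca.

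The difference between the species in this boxed course was tested directly. By limma 1 member differed, where 0.35% of all genes were lower and 0.288% higher in V. labrusca minus V. cinerea. At an unadjusted p under 0.05, 32 members were lower and 2 higher. The median was -1.13, and 108 of 150 members had the more negative difference in V. labrusca. The count was 9 without replicate 2 of the boxed pre-veraison V. labrusca berries, and 0 or 1 without any other of the 8 libraries. The member was VIT_17s0000g03690, described because it was the 1 called. It had 254 and 248 FPKM in boxed mature V. labrusca berries, against 4423 and 943 FPKM in boxed pre-veraison ones. Its V. cinerea levels were 2519 and 2186 FPKM in boxed mature berries, against 1068 and 775 FPKM in boxed pre-veraison ones. The difference of differences was -4.38 (SE 1.04, limma adjusted p = 0.0466), made of -3.02 in V. labrusca and 1.37 in V. cinerea. It kept its call in 5 of 17 alternatives, with limma adjusted p between 0.00874 and 0.36.

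The first step of the boxed course ran from boxed pre-veraison to boxed veraison berries. In V. labrusca 32 members fell and 0 rose by limma over this step, where 1.29% of all genes fell and 0.643% rose. The median difference was -2.42, against -0.05 over all genes. The count was 3 with a pseudocount of 0.1, 5 and 11 without replicate 1 and 2 of the boxed veraison berries, and 5 without replicate 1 of the boxed pre-veraison berries. Replicate 2 of the boxed veraison berries carries the conflicting stage entry. In 137 members the boxed veraison libraries lay below both boxed pre-veraison ones, as did 30.7% of all genes.

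VIT_02s0025g01300, taken up after its values were seen, was listed at 0 in both boxed veraison libraries of V. labrusca, against 22.6 and 18.6 FPKM at boxed pre-veraison (limma adjusted p = 0.00232). In V. cinerea it had 15.6 FPKM in the boxed veraison library, against 47.0 and 42.9 FPKM at boxed pre-veraison. VIT_16s0022g02200 had 4.29 and 3.67 FPKM in boxed veraison V. labrusca berries, against 98.0 and 91.2 FPKM at boxed pre-veraison. It fell by 4.27 (SE 0.70, limma adjusted p = 0.00138), a call lost with a pseudocount of 0.1 (limma adjusted p = 0.079).

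In V. cinerea 0 members were called by limma over that step, where 0.0336% of all genes fell and 0.106% rose, and 0 had an unadjusted p under 0.05. The median was 0.21, and 1 boxed veraison library stood against 2. The species difference of this step, a comparison added after the values were seen, called 0 members by limma, where 0.144% of all genes were lower and 0.0288% higher. At an unadjusted p under 0.05, 61 members were lower in V. labrusca minus V. cinerea and 0 higher. Its median was -2.40, against -0.15 over all genes, and 142 of 150 members were lower. In V. acerifolia, where 3 veraison libraries (boxed, re-exposed, sunlight) were set against 2 pre-veraison ones (boxed, sunlight), limma called 0 members, where 0.552% of all genes fell and 0.638% rose. There, 3 were lower and 0 higher at an unadjusted p under 0.05, and the median was 0.17 against 0.08 over all genes.

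V. acerifolia gave 1 library per condition, so its other values have no replicate check. The median level of the members was 7.62 boxed and 7.77 in sunlight at pre-veraison. At veraison it was 7.32 boxed, 7.76 re-exposed and 7.75 in sunlight. The re-exposed library of 2 weeks after veraison had 6.78. The library labelled mature and boxed throughout, in which 21.4% of the V. acerifolia private genes were seen, had 1.89. The library labelled mature in sunlight, in which 0.738% of the V. acerifolia and 100% of the V. cinerea private genes were seen, had 6.26. No comparison was made between the last 2.

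Box and sunlight were compared at veraison itself. In V. labrusca 7 members were higher in boxed than in sunlight berries by limma and 0 lower, where 2.41% of all genes were higher and 0.47% lower. The median was 0.18, against 0.20 over all genes. The count higher was 0 and 14 without replicate 1 and 2 of sunlight veraison, 1 and 0 without replicate 1 and 2 of boxed veraison, 0 without the 3 sparse libraries, and 3 with a pseudocount of 0.1 or with median-ratio scaling. Without replicate 2 of sunlight veraison 2 were called lower. VIT_19s0027g01890, which had the smallest p among them, had 7.03 and 12.3 FPKM in boxed berries, against 0 and 0.858 FPKM in sunlight ones. Its difference was 2.92 (SE 0.48, limma adjusted p = 0.00411), and the limma adjusted p was 0.0736 without the sparse libraries. In V. cinerea, with 1 boxed library against 2 in sunlight, 0 members were called by limma, where 0.125% of all genes were higher and 0.0432% lower. An unadjusted p under 0.05 was reached by 2 higher and 11 lower.

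Before veraison some members were lower in boxed than in sunlight berries. The V. labrusca and V. cinerea counts start from the sunlight libraries of the rule, which were chosen high, so only V. acerifolia is free of that choice. In V. acerifolia the boxed pre-veraison library was at least 1 log2 unit below the sunlight one in 32 members and at least 1 unit above it in 10, as were 8.49% and 5.6% of all genes. In V. cinerea these counts were 70 and 5 (11.6% and 7.27% of all genes). The 2 boxed V. labrusca libraries disagreed. Their mean gave 39 members lower and 3 higher (2.82% and 1.67% of all genes), but replicate 1 alone gave 3 and 0 (2.1% and 1.82%) and replicate 2 alone 69 and 7 (5.98% and 3.6%). In 23 members the boxed berries were lower by that amount in all 3 species, as were 0.754% of all genes, a count that rests on V. labrusca replicate 2. With replicate 1 alone it was 0 (0.158% of all genes), and with replicate 2 alone 30 (1.25%). At veraison in V. acerifolia, 55 members were at least 1 unit lower in the boxed than in the sunlight library and 10 higher, as were 8.13% and 6.05% of all genes.

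VIT_17s0000g03690 had 1008 FPKM boxed and 5429.9 FPKM in sunlight at pre-veraison in V. acerifolia. At veraison it had 998 FPKM boxed, 7202 FPKM re-exposed and 5297 FPKM in sunlight. VIT_17s0000g06350, the second by score, had 869 FPKM boxed and 2022 FPKM in sunlight at pre-veraison in V. acerifolia, and 567 FPKM boxed, 2311 FPKM re-exposed and 1887 FPKM in sunlight at veraison. In V. cinerea it had 572 and 694 FPKM boxed, against 2652 FPKM in sunlight, at pre-veraison. The boxed libraries were the lowest of their stage for both genes in these V. acerifolia and V. cinerea comparisons. In V. labrusca VIT_17s0000g06350 had 677 and 55.2 FPKM boxed, against 853 and 608 FPKM in sunlight, at pre-veraison, and these groups overlapped.

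In V. labrusca and V. cinerea, mature berries that had never left the box kept part of the members' transcripts. The 1 V. acerifolia library labelled mature and boxed throughout had a median level of 1.89, the lowest of that species. The other mature V. acerifolia libraries did not follow their label, so no such comparison was made there. Boxed mature berries had median levels of 4.29 and 4.05 in V. labrusca, against 1.36 to 1.59 in the 4 lit mature libraries, and 5.59 and 5.43 in V. cinerea, against 1.77 to 2.22. The lit libraries are those of the rule and were chosen low, so the size and direction are partly set by the choice and no test was made. The median boxed minus lit difference was 2.13 in V. labrusca (quartiles 1.18 to 3.08) and 3.44 in V. cinerea (quartiles 2.50 to 4.15). Over all 20835 genes it was 0.16 and 0.09. Both boxed libraries lay above all 4 lit ones in 113 members of V. labrusca and 142 of V. cinerea, where 27.7% and 30.4% of all genes did. This held in both species for 107 members and in neither for 2, counts that were not made over all genes. At least 2 log2 units of difference were seen in 80 members of V. labrusca and 121 of V. cinerea, where 2.3% and 5.78% of all genes had it. The difference was larger in V. cinerea for 110 of 150 members, and across members the 2 species' differences had a Pearson r of -0.02.

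In terms of the fall, the boxed mature median was 59.1% completed in V. labrusca and 37.4% in V. cinerea. By the labels, anthocyanin was 0 in both boxed mature V. labrusca libraries, against 1.276 to 1.97 in the 4 lit ones. Boxed mature V. cinerea berries have 1.085 and 1.973, against 5.22 to 5.981 in the lit ones. In each species, pigment was thus lower in the mature berries where the members were higher. The 2 V. cinerea sunlight libraries of 2 weeks after veraison went the other way. Their member medians were 2.43 and 5.51, and their anthocyanin 0.826 and 1.23. The lit mature V. cinerea libraries showed 23.1% to 38.5% of their species' private genes, and each boxed one 84.6%. The part of ripeness, light or identity in the members' levels was not tested.

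**Figure D4:**
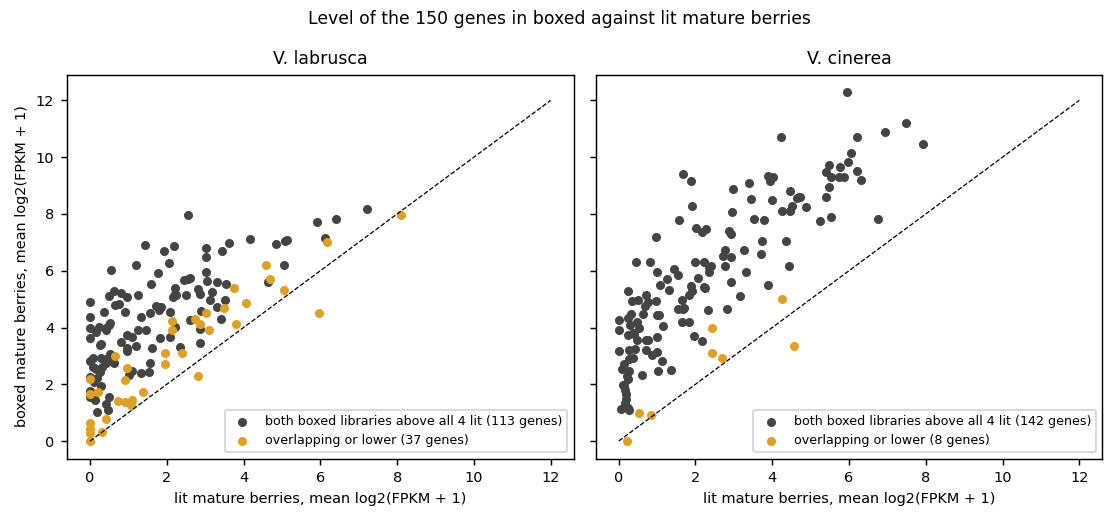
Each point is 1 of the 150 genes, placed by its mean level in the 4 lit mature libraries (horizontal) and the 2 boxed mature libraries (vertical), as log2(FPKM + 1); the dashed line marks equal levels. Both boxed libraries exceed all 4 lit ones in 113 genes of V. labrusca and 142 of V. cinerea.

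The genes differed widely in how much was kept, taken as boxed minus lit mature, a difference that can also hold a rise inside the box. In V. cinerea 34 members were higher in boxed mature than in boxed pre-veraison berries and 116 lower. By the lower of its 2 species differences, VIT_11s0016g05830 had the largest boxed minus lit difference. It had 29.1 and 28.7 FPKM in boxed mature V. labrusca berries and was listed at 0 in all 4 lit ones. Its V. cinerea values were 166 and 128 FPKM in boxed mature berries, against 0, 0, 2.18 and 3.57 FPKM in lit ones. By the higher of its 2 species differences, VIT_15s0021g02270 kept the least. It had 1.95 and 0 FPKM in boxed mature V. labrusca berries, against 0, 0, 0.642 and 0.897 FPKM in lit ones. Its V. cinerea values were 4.29 and 12.8 FPKM in boxed mature berries, against 2.62, 3.04, 6.21 and 7.29 FPKM in lit ones. The groups overlapped for this gene in both species. Within the box it fell by 4.49 in V. labrusca (SE 0.76, limma adjusted p = 0.00116), with 68.0 and 20.7 FPKM in boxed pre-veraison berries. Without replicate 1 of those boxed pre-veraison berries its limma adjusted p was 0.0557.

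GIN1 (VIT_16s0022g00670), the vacuolar invertase, ranked 11 by score. In V. labrusca sunlight berries it had 348 and 362 FPKM at pre-veraison, 8.64 and 10.1 FPKM at veraison and 1.99 and 0.468 FPKM at 2 weeks after. In boxed V. labrusca berries it had 416 and 459 FPKM at pre-veraison, 56.1 and 165 FPKM at veraison and 48.9 and 107 FPKM at maturity. Boxed berries lay above sunlight ones at veraison, with a difference of 3.24 (SE 1.32) that was not called (limma adjusted p = 0.187).

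In V. cinerea sunlight berries GIN1 had 1161 FPKM at pre-veraison, 1066 and 1784 FPKM at veraison, and 4.20 and 717 FPKM at 2 weeks after. That last step fell by 4.50 (SE 1.32, limma adjusted p = 0.0494), and without replicate 1 of 2 weeks after it was -0.94 with a limma adjusted p of 1. In boxed V. cinerea berries GIN1 had 1144 and 1191 FPKM at pre-veraison, 2298 FPKM at veraison and 240 and 197 FPKM at maturity. Lit mature libraries had 0.802 to 2.79 FPKM in V. labrusca and 2.28 to 23.3 FPKM in V. cinerea. Its boxed course was not called in either species, with -2.57 (SE 1.32, limma adjusted p = 0.412) in V. labrusca and -2.42 (SE 1.32, limma adjusted p = 0.35) in V. cinerea. V. acerifolia had 1579.6 FPKM boxed and 1794 FPKM in sunlight at pre-veraison, and at veraison 1878 FPKM boxed, 1604 FPKM re-exposed and 1891 FPKM in sunlight.

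**Figure D5:**
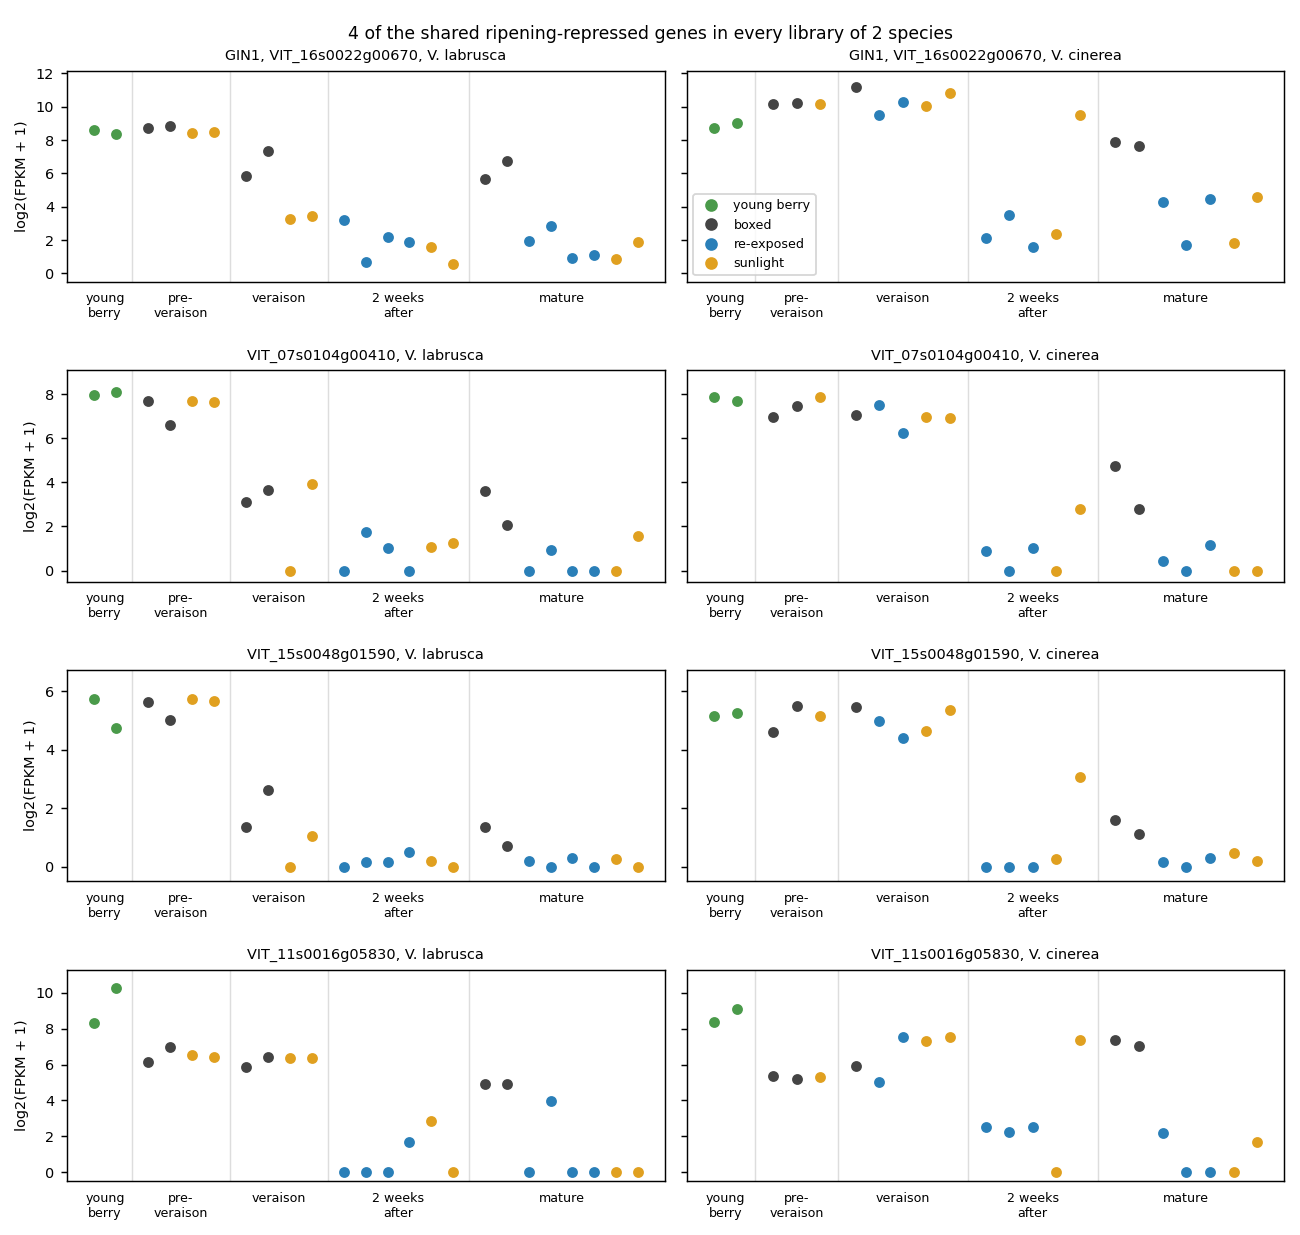
Level of 4 members, as log2(FPKM + 1), in every V. labrusca (left) and V. cinerea (right) library, ordered by stage and coloured by light at harvest. GIN1 and VIT_11s0016g05830 stay well above their lit mature levels in boxed mature berries of both species, and VIT_15s0048g01590 stays near 1.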

How the data were processed

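Total RNA from berries was sequenced in 56 libraries. The authors deposited FPKM for 29971 genes, made with TopHat2 2.0.14 and Cufflinks 2.2.1 per the submitters' processing notes. The genome build and annotation are not given in the sources used here, and depth is unknown. All libraries were grouped by species, stage and light from titles and descriptions (35 groups, 21 with 2 libraries and 14 with 1). Genes with at least 1 FPKM in at least 2 libraries (20835) were analysed as log2(FPKM + 1), a scale that understates the change of low genes. One limma 3.58.1 fit (R 4.3.3) had a coefficient per group, 21 residual degrees of freedom and an empirical Bayes trend. Groups of 1 library were taken to vary like the others. P-values were Benjamini-Hochberg adjusted over all 20835 genes, and the fit was tested on simulated data. Only differences between libraries that the rule did not use were tested.

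The members, gene lists and comparisons were chosen with earlier results of these data known. Of 21 lists, 4 held recalled identifiers; the rest depended on gene descriptions and were not formed. Named genes were at most 2 each of the highest scores, the limit, the most and least kept, the earliest and latest, and the smallest p-values, plus listed genes; VIT_17s0000g03690, VIT_17s0000g06350, VIT_19s0027g01890, VIT_02s0025g01300 and VIT_11s0016g00560 were added after their values were seen. No sequences are shown, since no reference was used here. Alternatives were a pseudocount of 0.1, other filters, median-ratio scaling, a replicate block, single-species fits and libraries left out.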

Additional observations from a re-analysis of the deposited data

Results flagged for a closer look

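VIT_17s0000g03690 was the 1 member called for a species difference in its course from boxed pre-veraison to boxed mature berries. That is 0.667% of the members, close to the share of all genes, 0.35% lower and 0.288% higher. The gene's interaction was -4.38 log2 units (limma adjusted p = 0.0466), a call kept in 5 of 17 alternatives. Its difference was -3.02 in V. labrusca and 1.37 in V. cinerea, with 2 boxed mature libraries set against 2 boxed pre-veraison libraries in each species. The boxed pre-veraison libraries of V. labrusca were themselves apart, at 4423 and 943 FPKM, and without replicate 1 of them the interaction was -3.27 (limma adjusted p = 0.36).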

How the results depend on the processing

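Counts of members called lower are given unless stated. With a pseudocount of 0.1 they were 9 for V. labrusca and 8 for V. cinerea boxed ripening, 0 for its species difference, 3 for V. labrusca boxed onset, 2 and 34 for V. labrusca and V. cinerea between veraison and 2 weeks later, and 3 called higher for V. labrusca boxed against sunlight at veraison. The V. labrusca median completed at veraison was then 58.3%, and the kept difference 3.04 and 4.06. Without a filter the species differences of boxed ripening and boxed onset called 0 and 1. Median-ratio scaling gave 3 higher for V. labrusca at veraison and 60.2% completed, and moved the median gene by 0.04 and 0.06 in the boxed courses of V. labrusca and V. cinerea. V. cinerea alone gave 18 for boxed ripening and 20 after veraison. Without the 9 libraries against their labels the species difference of boxed ripening called 2, V. labrusca after veraison 4 and V. labrusca boxed at veraison 1. Without the 3 sparse libraries the last comparison called 0 higher and the completed share was 61.0%. Without the 2 libraries of conflicting stage the species difference called 0, V. labrusca boxed onset 12, after veraison 10, boxed at veraison 2, and the completed share was 61.2%.

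No steady pairing of samples by replicate number was seen, though these values cannot exclude one. Correlations of same-numbered deviations ran from -0.22 to 0.73 in V. labrusca (6 of 66 over 0.1) and from -0.11 to 0.42 in V. cinerea (14 of 36). A replicate block gave 2 for the species difference of boxed ripening, and 1 lower for V. labrusca boxed at veraison; it moved no other count by over 1.5 times.

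Leaving out 1 library at a time gave 6 to 27 for V. labrusca and 6 to 14 for V. cinerea boxed ripening, 0 to 9 for the species difference, 5 to 32 for V. labrusca boxed onset and 0 to 1 for its species difference. After veraison it gave 0 to 12 for V. labrusca and 1 to 131 for V. cinerea, and at veraison 0 to 2 lower and 0 to 14 higher for boxed V. labrusca. The completed share at veraison was 61.0% to 64.0% in V. labrusca and 8.38% to 11.1% in V. cinerea. At 2 weeks after it was 92.9% to 97.7% and 39.4% to 94.3%. The kept difference was 1.73 to 2.48 in V. labrusca and 3.36 to 3.58 in V. cinerea. No gene reported with a test reversed its direction under these alternatives. Depth is unknown, so values near 0 cannot be told from undetected ones.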
